A study of Glycine max with 72 samples.

Results

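The 9 libraries described here followed 3mlpa, a soybean (Glycine max) line with little phytic acid in its seeds, through 3 stages of germination. They were chosen by their label, as every library of the genotype mips1/mrp-l/mrp-n, and are 9 of the 72 libraries of a series of 8 lines. Each stage was sampled as 3 replicates of 10 seeds, with dry seeds at stage 1, seeds that had taken up water for 8 h at stage 2, and seeds whose radicle had emerged at stage 3. Stage 2 was compared with stage 1, and stage 3 with stage 2, within the line. The sister line 3MWT (MIPS1/MRP-L/MRP-N, normal phytic acid), sampled at the same 3 stages, served to ask whether a change along germination differed between the lines.

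3mlpa came from a cross of a parent that carries mips1 with another that carries mrp-l and mrp-n, and 3MWT came out of the same cross without the mutations. Each genotype was 1 line, so other differences that segregated in the cross cannot be told apart from the 3 mutations. Dry seeds were milled, with no removal of the seed coat stated. At the later stages the seeds had been sterilized, dried again overnight and germinated on wet paper in the dark at 29 °C, and their seed coats and radicles were taken off before grinding. A change from stage 1 to stage 2 therefore cannot be told apart from the loss of these tissues and the other handling. Stage 3 was set by radicle emergence, with no time in water stated, and the study lists emergence as low for 3mlpa and normal for 3MWT. A difference between the lines in the change to stage 3 cannot be told apart from a difference in that time. In RNA from whole samples, fewer cells of a type and less RNA per cell cannot be told apart either. No annotated gene matched the marker descriptions for seed coat (0 found) or radicle (0 found), so the removed tissues were not followed by markers. The study calls the replicates biological, but nothing states that they came from separate plants. The p-values measure the spread between these seed samples.

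Germination starts when a dry seed takes up water and ends when the radicle breaks through. A dry seed holds messenger RNA stored during maturation, much of it for storage proteins, late embryogenesis abundant (LEA) proteins that protect drying cells, oil body proteins and heat shock proteins, while abscisic acid (ABA) holds growth back and gibberellin promotes it. Phytic acid, inositol hexakisphosphate, is the main store of phosphate in seeds. MIPS makes the inositol skeleton from glucose 6-phosphate, inositol phosphate kinases (ITPK) add phosphates, and ABC transporters of the MRP family carry phytic acid into the storage vacuole.

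The libraries held 20295984 to 30510877 counted read pairs (median 27489554). Counts were found in 30571 to 34527 genes at stage 1, 38469 to 39362 at stage 2 and 39236 to 39875 at stage 3. Dry seed libraries were concentrated in few genes, with 15.4% to 29.1% of read pairs in the 10 most abundant genes, against 8.16% to 9.19% at stage 2 and 5.03% to 5.17% at stage 3. Replicate 2 of stage 1 stood apart from the other dry samples. It had the lowest of these shares, its scaling factor by the trimmed mean of M-values (TMM) was 0.776 beside 0.474 and 0.320, and over genes its log2 levels had a correlation of 0.921 with the stage 2 mean, beside 0.852 and 0.804. The total counts of calls are given with and without it. Of 39 first-step genes checked without it, 1 lost its call and 5 gained one, and these are given both ways. Values of other single genes rest on all 9 libraries.

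Levels are counts-per-million values (CPM) of the TMM-scaled library, and compare stages relative to the bulk of genes. A gene was called a DEG where the quasi-likelihood test of edgeR, adjusted by the method of Benjamini and Hochberg over all 29938 genes tested gave an adjusted p under 0.01 with a log2 fold change beyond 1 in either direction. These values are given as edgeR adjusted p, log2 fold changes carry their standard error (SE), and a gene is said to rise or fall only where it was called.

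From stage 1 to stage 2, 5031 genes rose and 4208 fell, which is 30.9% of genes tested, 16.8% upward and 14.1% downward. From stage 2 to stage 3, 2883 rose and 2812 fell, 19% of genes, 9.63% upward and 9.39% downward. The samples of the 2 stages did not overlap in 58% of genes tested in the first step and 60.6% in the second, which is the background for single genes described as not overlapping. Without replicate 2 of stage 1 the counts were 7108 and 5864 in the first step and 4026 and 3704 in the second. The split of directions depended on the scaling. With library totals in place of TMM factors, the median log2 fold change of all genes moved from 0.15 to 1.37 in the first step and from 0.03 to 0.42 in the second, and the share of called genes that rose went from 54.5% to 94.6% and from 50.6% to 69.9%. Directions below are therefore relative to the bulk of genes, and where the median of a gene group changes sign with library totals, that value stands beside it.

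**Figure D1:**
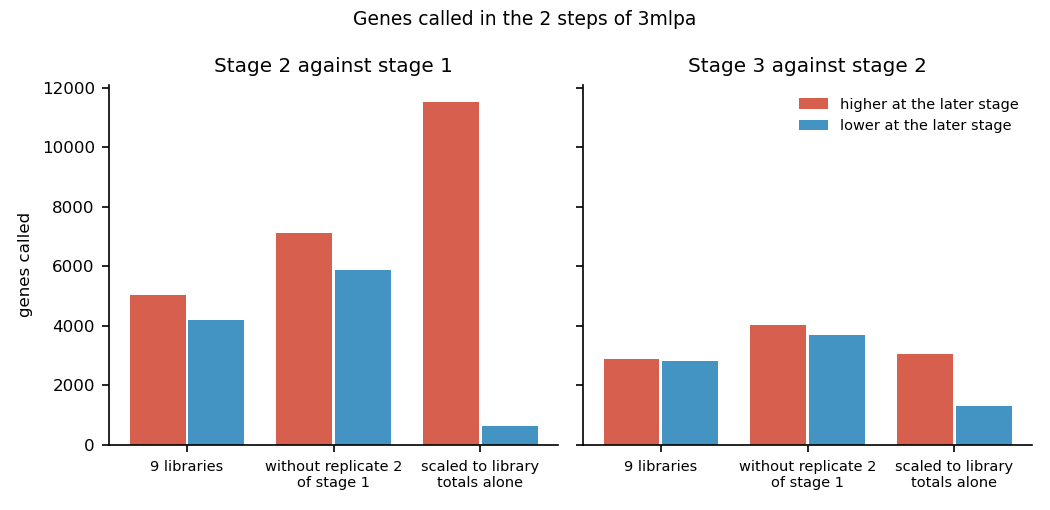
Number of genes called higher (red) or lower (blue) at the later stage of 3mlpa (vertical axis, genes), for each of 2 steps of germination and 3 ways of fitting. With 9 libraries, 5031 and 4208 genes were called in the first step, and with library totals alone nearly all calls of that step, 94.6%, were upward.

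Roles below are those of the Arabidopsis homologue that the study's annotation pairs with each soybean gene. A soybean gene is called by the name of that homologue or by the name the study gives it. MIPS1, MRP-L and MRP-N are the study's locus names, and its homologue annotation pairs MIPS1 with MIPS2. That annotation was held for 3160 genes, taken from tables of genes that differed between lines and held here in part. Of the 1028 genes with a protein name, 850 lay on chromosomes 1 to 3. Of the 3160 annotated genes, 3046 were tested. In the first step 38.7% of these were called, 22.9% upward and 15.8% downward. In the second 33.6% were called, 19.1% upward and 14.5% downward. These shares lie above those over all genes, so counts within a group or family are to be read against both. A count near them is no result about the group. The 23 groups hold 267 genes, of which 261 passed the filter on low counts.

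The 3 genes that carry the mutations were all expressed, and each point mutation leaves the transcript countable, so the counts do not check the genotype. MIPS1 (Glyma.11G238800, chromosome 11, 33319226 to 33322244 in Wm82.a2.v1) was at 306, 141 and 448 CPM in dry seeds, 46.7, 42.2 and 57.2 CPM in imbibed seeds and 3.52, 5.47 and 6.75 CPM after radicle emergence. Every library of a stage lay below every library of the stage before it, so this first enzyme of inositol synthesis fell in both steps. The fall was 6.12-fold in the first step (log2 fold change -2.61, SE 0.41, edgeR adjusted p = 0.000501) and 9.28-fold in the second (log2 fold change -3.21, SE 0.42, edgeR adjusted p = 0.000188). With library totals in place of TMM factors, the first of these falls was not called. The ABC transporter gene MRP-L (Glyma.19G169000, chromosome 19, 42961519 to 42970330) was at 64, 81.1 and 87.7 CPM, then 114, 102 and 123, then 53, 79.2 and 55. Its imbibed seeds were the highest with no overlap with either other stage, but neither step was called (log2 fold change 0.54, SE 0.25, edgeR adjusted p = 0.0924, then log2 fold change -0.86, SE 0.25, edgeR adjusted p = 0.0219). Its partner MRP-N (Glyma.03G167800, chromosome 3, 38202353 to 38210883) was at 25.9, 50.03 and 18.5 CPM, 70.1, 61 and 72.1 CPM and 42.2, 68.2 and 46.5 CPM in the order of the stages. Replicate 2 was the highest of its dry samples. The first step was not called with it (log2 fold change 1.10, SE 0.35, edgeR adjusted p = 0.0205) and was called without it (log2 fold change 1.60, edgeR adjusted p = 0.000155), and the second step was not called. A homologous transporter gene of the same family, the MRP5 homologue Glyma.13G127500, had dry levels of 10.8, 40.4 and 8.77 CPM, again highest in replicate 2, and rose to 98.7, 85.8 and 89.1 CPM (log2 fold change 2.17, SE 0.50, edgeR adjusted p = 0.00395).

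Across the inositol and phytic acid pathway, 4 genes rose and 8 fell of 17 tested in the first step, with a median log2 fold change of -1.13 (0.15 over all genes), and 1 rose and 7 fell in the second (median -1.04, 0.03 over all genes). With library totals the first median was 0.25, with 6 genes called upward and 0 downward, so the direction of this group in the first step depended on the scaling. Each of 4 kinase genes of the ITPK type fell in at least 1 step. ITPK4 (Glyma.11G218500) went from 28.7, 20.01 and 35.7 CPM to 11.6, 10.8 and 9.89 and then 1.96, 1.46 and 2.78, without overlap between stages, a fall of -1.38 and then -2.38 on the log2 scale. Its copy Glyma.18G038800 fell in both steps as well (-2.34 and -2.33). Of the genes for ITPK1, Glyma.09G206100 fell in the first step from 17.4, 7.5 and 19.2 CPM to 4.56, 4.71 and 5.53 CPM, and Glyma.01G016700 was called in the second step alone, falling from 4.19, 5.35 and 5.62 CPM to 1.48, 0.989 and 1.55 CPM (log2 fold change -1.91, SE 0.36, edgeR adjusted p = 0.00178). A first-step difference in Glyma.01G016700 was called only without replicate 2 of stage 1 (log2 fold change -1.50 beside -1.18 with it).

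Genes that use or move inositol did not all go the same way. The inositol oxygenase gene MIOX1 (Glyma.08G199300), whose product opens the inositol ring toward cell wall sugars, was at 25.6, 39.7 and 47.4 CPM, 23, 22.3 and 20.3 CPM and 1.78, 1.43 and 1.85 CPM. Its stage 3 samples all lay below those of both earlier stages, and it fell 12.9-fold in the second step (log2 fold change -3.69, SE 0.28, edgeR adjusted p = 1.04e-05). Among inositol transporter genes of the INT2 type, Glyma.05G142500 fell in both steps, from a mean of 332 CPM to 151 and 44.7 CPM, although the first fall (-1.13 on the log2 scale) was not called without replicate 2 of stage 1 (-0.90). Its neighbour Glyma.05G142400 rose in both steps, from 3.69 to 12.7 and 28.7 CPM (1.78 and 1.17 on the log2 scale). The phosphatase gene 5PTASE2 (Glyma.01G200500), which removes a phosphate from inositol phosphates, was at 5.85, 4.89 and 2.77 CPM in dry seeds and 58.2, 65.2 and 45.7 CPM in imbibed seeds. This was the largest rise of the group, 12.2-fold (log2 fold change 3.61, SE 0.37, edgeR adjusted p = 3.84e-05).

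**Figure D2:**
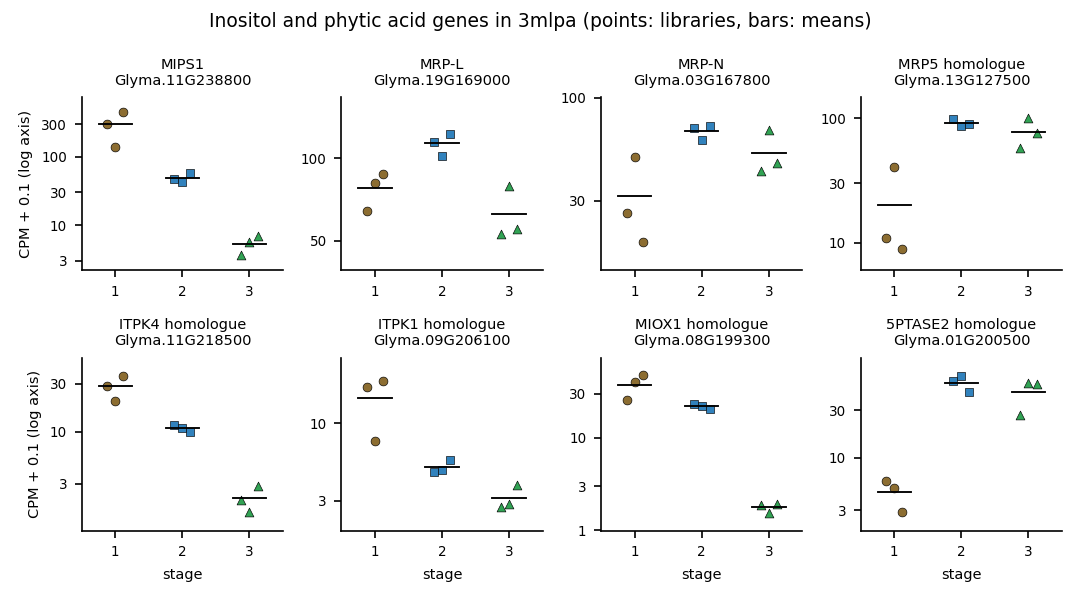
Level of 8 genes of the inositol and phytic acid pathway in each library of 3mlpa (CPM plus 0.1, log axis, points) at stages 1 to 3, with the mean as a bar. MIPS1, ITPK4 and MIOX1 decline to the lowest levels at stage 3, whereas 5PTASE2 and the MRP5 homologue are lowest in dry seeds, with replicate 2 the highest dry sample for MRP-N and the MRP5 homologue.

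LEA genes declined along the course. Their summed level was 55439 to 80322 CPM in dry seeds, 20111 to 22629 CPM in imbibed seeds and 1781 to 2764 CPM after radicle emergence. In the first step 0 rose and 7 fell of 14 tested (median -1.56), 11 of them without replicate 2 of stage 1 and 1 with library totals, where the median was -0.30. In the second step 0 rose and 13 fell (median -3.78), and 13 fell under each of these alternatives as well. EM6 (Glyma.03G056000), an Em-type LEA gene, had the highest level per length of the LEA genes in dry seeds, 23221 CPM per kilobase of exon, with replicates at 17533, 8883 and 30429 CPM. It dropped to 2024, 2040.2 and 2284 CPM and then to 76.4, 40.3 and 89.8 CPM, falls of 8.96-fold (log2 fold change -3.16, SE 0.56, edgeR adjusted p = 0.001) and 30.7-fold (log2 fold change -4.94, SE 0.61, edgeR adjusted p = 0.000127). EM1 (Glyma.18G203500) had the steepest second step of the group, from 334, 334 and 289 CPM to 6.63, 4.75 and 8.7 CPM (log2 fold change -5.57, SE 0.48, edgeR adjusted p = 1.64e-05). Other members changed less at imbibition. LEA14 (Glyma.16G031300) had means of 10846, 4583 and 675 CPM, and LEA7 (Glyma.13G363300) of 5951, 3825 and 242 CPM. For both only the second step was called with all 9 libraries. Scaled to CPM by library totals alone, summed LEA levels of dry seeds (25732 to 43002) overlapped those of imbibed seeds (26728 to 27437) and lay above those of stage 3 (2868 to 4332). The 1 LEA gene that did not fall in the second step was SAG21 (Glyma.02G017100), which stood at 1.04, 0.695 and 0.777 CPM in imbibed seeds and 3.08, 3.12 and 1.55 CPM at radicle emergence and was called in neither step.

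Transcripts for seed reserves behaved less uniformly. Of 7 storage protein genes tested, 0 rose and 3 fell in the first step (median -0.93, but 0.14 with library totals), and 0 rose and 2 fell in the second (median -1.19). The vicilin-like gene Glyma.U020300 went from 11756, 6739.8 and 12155 CPM to 1257, 1367 and 1652 CPM and 179, 207 and 198 CPM and fell in both steps (-2.84 and -2.87 on the log2 scale). By contrast, the 12S globulin gene Glyma.03G163500 was at 2972, 3384 and 849 CPM, 1383, 952 and 1444 CPM and 1702, 396 and 269 CPM. Its stages overlapped, its stage 3 samples spread over a wide range with replicate 1 highest, and it was not called in either step. A second 12S globulin gene, Glyma.10G037100, was likewise highest in replicate 1 at stage 3, with 159, 51.6 and 46.4 CPM, and was not called.

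Oil body genes fell in both steps, 3 of 4 in the first (median -1.77, with 0 called under library totals, median -0.42) and 4 of 4 in the second (median -2.47). The oleosin gene Glyma.06G078700, whose product coats oil bodies, was at 1330.1, 884 and 1814 CPM, 299, 264 and 338 CPM and 49.7, 44.5 and 37.7 CPM, with no overlap between stages. Of 6 genes tested for the breakdown of stored oil, 1 rose in the first step (median 0.43) and 2 rose in the second (median 0.89), and 0 fell. SDP1 (Glyma.03G130900), the lipase that starts the breakdown of seed oil in Arabidopsis, rose in the second step from 7.99, 10.4 and 11.5 CPM to 31.5, 22.7 and 43.8 CPM (log2 fold change 1.72, SE 0.29, edgeR adjusted p = 0.000836). PCK1 (Glyma.04G089700), which turns carbon from oil toward sugar, rose in the first step from 0.0705, 0.0569 and 0.461 CPM to 3.95, 5.62 and 3.77 CPM (log2 fold change 4.99, SE 0.62, edgeR adjusted p = 0.000127).

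Raffinose family sugars protect drying cells and are used up in germination. Of 7 genes tested for their synthesis and breakdown, 0 rose and 4 fell in the first step (median -1.57, 1 called with library totals) and 0 rose and 6 fell in the second (median -3.18). The 4 genes for galactinol synthase, the first enzyme of the pathway, fell in both steps. GOLS1 (Glyma.03G222000) was at 7451, 3830.1 and 4734 CPM in dry seeds, 660.2, 1049.9 and 939 CPM in imbibed seeds and 129, 172 and 179.7 CPM at radicle emergence. Its copy Glyma.19G219100 dropped furthest in the second step, 21.5-fold, from 46.5, 78 and 99.3 CPM to 3.13, 3.51 and 3.76 CPM (log2 fold change -4.43, SE 0.34, edgeR adjusted p = 1.15e-05). The stachyose synthase gene Glyma.19G217700 was called in the second step alone, falling from 272, 276 and 321 CPM to 37.1, 27.3 and 31.7 CPM. SIP2 (Glyma.03G137900), described in Arabidopsis as an alpha-galactosidase that breaks raffinose down, did not follow them. It was at 12630.1, 11721 and 7413 CPM, 4608, 4876 and 5045 CPM and 6156, 7625 and 6269 CPM and was called in neither step.

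Small heat shock proteins hold unfolding proteins in dry seeds, and most of their genes fell in the first step. Of 8 tested, 0 rose and 6 fell in the first step (median -1.65, with 1 up and 1 down under library totals) and 0 rose and 4 fell in the second (median -1.77). HSP17.6C (Glyma.01G106800) was at 651, 200.2 and 741 CPM, with replicate 2 the lowest, then 31.1, 19.5 and 33.6 CPM and 1.7, 1.68 and 1.93 CPM (log2 fold change -4.24, SE 0.48, edgeR adjusted p = 6.97e-05, then log2 fold change -3.98, SE 0.48, edgeR adjusted p = 0.000104). The larger chaperones, HSP70 and HSP90, had 1 up and 1 down of 6 in the first step (median 0.11) and 0 up and 4 down in the second (median -2.31, 2 down with library totals). HSP70-4 (Glyma.02G093200) rose first and fell later, through 63.1, 73.8 and 30.3, 166, 121 and 134 and 16.8, 10.4 and 9.21 CPM, and its imbibed samples lay above all others. HSC70-1 (Glyma.19G172200), a constitutive chaperone, was at means of 339, 296 and 277 CPM and was called in neither step.

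Antioxidant enzyme genes also declined, with 0 up and 6 down of 9 in the first step (median -1.61, 1 up and 1 down with library totals) and 1 up and 5 down in the second (median -2.55). GSH1 (Glyma.01G219900), the first enzyme of glutathione synthesis, was at 1731, 2038 and 2711 CPM, 599.7, 726 and 803 CPM and 35.2, 28.4 and 52.8 CPM, and its second fall was 18.3-fold (log2 fold change -4.19, SE 0.40, edgeR adjusted p = 2.38e-05). PER1 (Glyma.08G088000), a peroxiredoxin known from dry Arabidopsis seeds, went from a mean of 107 to 37.8 and 1.31 CPM and fell in both steps. The 1 gene that rose in the second step was the peroxiredoxin of chloroplasts Glyma.03G200600, from 1.28, 0.997 and 0.867 to 3.39, 2.7 and 2.23 CPM.

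**Figure D3:**
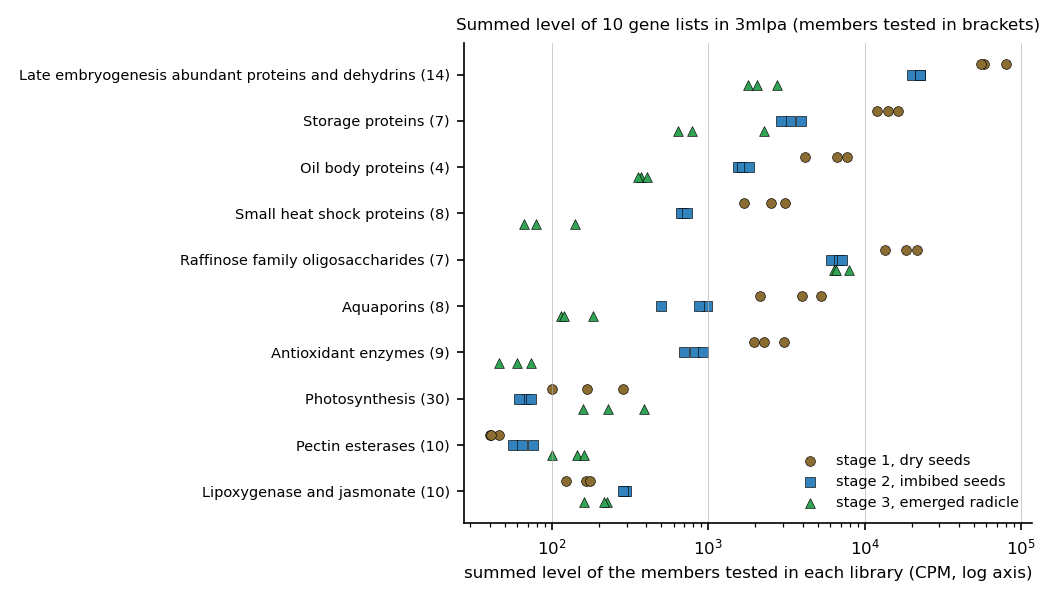
Summed level of 10 gene groups in each library of 3mlpa (CPM, log axis, points) at the 3 stages, with the number of members tested in brackets. LEA, storage protein, oil body, small heat shock protein and antioxidant sums are lower, and pectin esterase sums higher, at each later stage on the TMM scale. By library totals, dry and imbibed seeds overlap for the LEA, antioxidant and storage protein sums, and imbibed seeds and stage 3 for the storage protein sums.

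ABA genes moved in both directions, among activators and brakes of the response alike. Of 24 tested, 7 rose and 8 fell in the first step (median -0.32, 1.02 with library totals) and 3 rose and 10 fell in the second (median -0.63). ABI5 (Glyma.10G071700), the transcription factor through which ABA blocks germination, was at 194, 229 and 167 CPM, 63.6, 58.2 and 67.8 CPM and 5.57, 3.26 and 4.82 CPM. It fell 3.11-fold and then 13.9-fold, with no overlap between stages (log2 fold change -1.64, SE 0.27, edgeR adjusted p = 0.000588, then log2 fold change -3.79, SE 0.29, edgeR adjusted p = 1.06e-05). A second ABI5 gene, Glyma.13G153200, fell in both steps as well (-1.63 and -2.88 on the log2 scale). AFP2 (Glyma.02G118500), which binds ABI5 and dampens ABA signalling, was at 788, 289 and 889.5 CPM in dry seeds, lowest in replicate 2, and fell to 60.2, 82.7 and 68.7 and then 7.34, 7.07 and 7.94 CPM (log2 fold change -3.22, SE 0.41, edgeR adjusted p = 0.000141, then log2 fold change -3.24, SE 0.41, edgeR adjusted p = 0.000141). The protein phosphatase HAI3 (Glyma.01G225100), another brake on ABA signalling, went the same way, from 695 to 148 and 23.6 CPM. ABI3 (Glyma.08G357600), a master regulator of seed maturation, was at 51.7, 157 and 24.5 CPM, 180.1, 235 and 193 CPM and 71.7, 132 and 126 CPM. Its dry level was highest in replicate 2, and the first step was called only without that library, as a rise of 2.40 on the log2 scale beside 1.37 with it.

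Genes that make, destroy or perceive ABA also went both ways. CYP707A1, the ABA 8'-hydroxylase that inactivates the hormone, is the homologue of 4 genes here, of which 3 rose in the first step. The other one, Glyma.16G109300, named after its values were seen, fell and then rose, through means of 28, 9.36 and 27.5 CPM. Glyma.01G153300 rose during imbibition, from 4.3, 9.78 and 6.15 to 60.1, 68.6 and 64.6 CPM (log2 fold change 3.25, SE 0.32, edgeR adjusted p = 3.18e-05), and was then at 54.9, 80.3 and 58.7 CPM. Glyma.16G076600 rose mostly at radicle emergence, through 3.66, 6.25 and 5.54, 11, 15.1 and 9.74 and 115, 101 and 107 CPM (log2 fold change 3.17, SE 0.28, edgeR adjusted p = 1.81e-05). The ABA receptor gene PYL2 (Glyma.14G093700) rose from 0, 0.227 and 0.308 CPM in dry seeds to 20.1, 24 and 16.7 CPM in imbibed seeds, with edgeR adjusted p = 1.42e-05. PYR1 (Glyma.08G272500), another receptor, rose in the second step, from 2.19, 3.05 and 2.66 to 17.7, 11.9 and 11 CPM. The receptor gene PYL8 (Glyma.06G126100), named with the next 4 genes after their values were seen, fell in that step from 24.8, 28.1 and 25 to 10.7, 12 and 14.4 CPM. Of synthesis genes, ABA2 (Glyma.11G180800) rose in the first step, from 0.352, 0.341 and 0.154 to 1.75, 1.48 and 1.11 CPM (2.23 on the log2 scale). ABA1 (Glyma.01G186200) fell in both steps (-1.66 and -3.36 on the log2 scale). The transcription factor gene ABF2 (Glyma.06G040400), which activates ABA responses, rose at imbibition from 0.986, 0.398 and 0.308 to 3.77, 4.32 and 3.17 CPM (2.65 on the log2 scale), whereas the phosphatase gene HAB1 (Glyma.06G054000), which holds them back, fell from 52.6, 23.8 and 44.3 to 18.3, 12.9 and 18.5 CPM (-1.28 on the log2 scale).

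Gibberellin genes were measured as a further group. Of 10 tested, 3 rose and 0 fell in the first step (median 0.39) and 3 rose and 1 fell in the second (median 0.37). Calls covered 38.7% and 33.6% of annotated genes in these steps. The receptor gene GID1B (Glyma.03G148300) had means of 324, 226 and 139 CPM and was not called, whereas its copy Glyma.02G151100 fell in the second step from 19.3, 19.7 and 22.1 to 8.44, 7.07 and 10.1 CPM. GASA1 (Glyma.17G258200), a small protein induced by gibberellin in Arabidopsis, was at 0.211, 0.114 and 0 CPM, 2.52, 2.63 and 1.76 CPM and 19.3, 17.9 and 23.4 CPM and rose in both steps (log2 fold change 4.11, SE 0.47, edgeR adjusted p = 7.58e-05, then log2 fold change 3.13, SE 0.29, edgeR adjusted p = 2.16e-05). RGL3 (Glyma.03G219900), a DELLA repressor of gibberellin responses, rose in the second step from 0.543, 0.544 and 0.209 to 10.3, 6.36 and 12.6 CPM (log2 fold change 4.48, SE 0.45, edgeR adjusted p = 3.32e-05).

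Auxin genes rose at imbibition, 13 up and 4 down of 21 (median 2.56), and were mixed afterwards, 5 up and 8 down (median -0.87). ARF10 (Glyma.13G325200), an auxin response factor, was at 4.51, 4.04 and 3.54 CPM, 36.5, 42.7 and 29.3 CPM and 11.6, 19.2 and 17.9 CPM, rising 8.9-fold (log2 fold change 3.15, SE 0.28, edgeR adjusted p = 1.58e-05) and then falling 2.23-fold (log2 fold change -1.15, SE 0.25, edgeR adjusted p = 0.00437). Its 2 copies did otherwise, since Glyma.12G076200 fell in the first step from 21.4, 14.6 and 9.69 to 6.49, 5.23 and 6.07 CPM and Glyma.11G145500 rose in the second from 2.34, 1.84 and 1.91 to 15.4, 5.47 and 15.4 CPM. GH3.1 (Glyma.02G125600), which ties auxin to amino acids, peaked in imbibed seeds at 16.6, 36.3 and 22.3 CPM between 1.34, 1.31 and 2.15 CPM before and 3.02, 4.25 and 9.1 CPM after. GH3.6 (Glyma.13G284600), of the same enzyme family, fell in both steps, from 112, 80.2 and 159.9 to 43.7, 59.1 and 40.4 and 8.88, 9.35 and 11.2 CPM. SAUR4 (Glyma.06G006000), from a family of auxin-induced growth genes, had no read pair in dry seeds. It was at 1.75, 1.66 and 0.837 CPM in imbibed seeds, at least 5.04-fold higher than a floor of 3 read pairs in each library, and at 8.17, 6.33 and 7.15 CPM at stage 3.

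**Figure D4:**
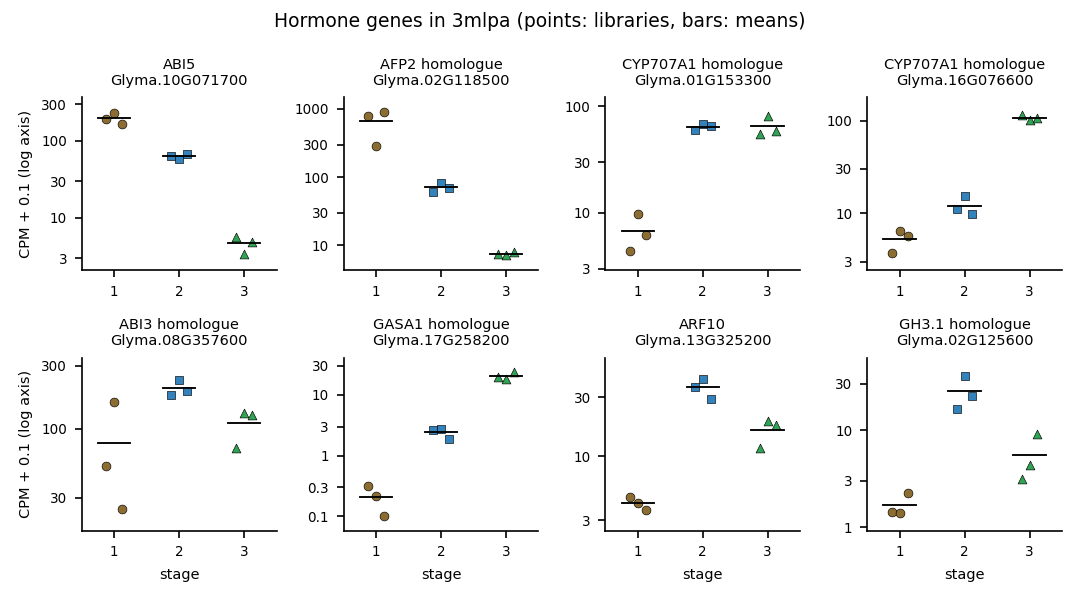
Level of 8 hormone genes in each library of 3mlpa (CPM plus 0.1, log axis, points) at stages 1 to 3, with the mean as a bar. ABI5 and AFP2 fall at each stage, the CYP707A1 homologues rise at different stages, GASA1 rises throughout, and ARF10 and GH3.1 are highest in imbibed seeds, while the highest dry sample for ABI3 is replicate 2.

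Genes of jasmonate synthesis and response rose at imbibition in 4 cases and fell in 0 of 10 tested (median 1.15). Afterwards 3 rose and 3 fell (median 0.32). The shares of annotated genes called were 38.7% and 33.6%. The repressor gene JAZ1 (Glyma.13G112000) rose and fell again, through 5.35, 5.46 and 4.15, 40.3, 34.9 and 37.4 and 3.5, 8.43 and 7.43 CPM (log2 fold change 2.90, SE 0.32, edgeR adjusted p = 6.66e-05, then log2 fold change -2.54, SE 0.31, edgeR adjusted p = 0.000114), and its imbibed samples were the highest throughout. OPR3 (Glyma.13G109800), an enzyme of jasmonate synthesis, rose in the first step from 0.423, 0.114 and 0 to 2.37, 3.32 and 2.96 CPM. LOX3 (Glyma.07G039900), a lipoxygenase at the entry of the pathway, was called in the first step only without replicate 2 of stage 1 (log2 fold change 1.14, beside 0.92 with it).

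Cell wall genes held some of the steepest rises. For expansins and xyloglucan endotransglucosylases, which loosen walls, 8 rose and 1 fell of 15 tested in the first step (median 3.42), and 6 rose and 4 fell in the second (median -0.90). EXLA1 (Glyma.11G096700), an expansin-like gene, was at 2.54, 2.84 and 1.85 CPM in dry seeds, 89.8, 92.1 and 63.7 CPM in imbibed seeds and 80.4, 99.9 and 123 CPM at radicle emergence. It rose 33.2-fold in the first step (log2 fold change 5.05, SE 0.32, edgeR adjusted p = 2.43e-06) and was not called in the second. EXLB1 (Glyma.05G065700) waited until radicle emergence, when it went from 1.04, 4.47 and 1.28 to 151, 88.2 and 147 CPM (log2 fold change 5.83, SE 0.67, edgeR adjusted p = 7.63e-05). The xyloglucan endotransglucosylase gene XTH23 (Glyma.13G095100) had no read pair in dry seeds and was at 6.24, 4.71 and 5.32 CPM after imbibition, at least 19.3-fold above the same floor. EXPA15 (Glyma.17G101400), an alpha-expansin, was the opposite case, with 286, 185 and 423 CPM in dry seeds, 49.7, 52.4 and 63.3 CPM after imbibition and 5.02, 5.64 and 6.77 CPM at stage 3 (log2 fold change -2.43, SE 0.32, edgeR adjusted p = 0.000189, then log2 fold change -3.24, SE 0.34, edgeR adjusted p = 4.18e-05).

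Pectin esterase genes showed 4 up and 3 down of 10 in the first step (median 2.15) and 4 up and 1 down in the second (median 0.93). PAE8 (Glyma.16G107300), a pectin acetylesterase, rose in both steps, through 3.17, 4.43 and 3.54, 27.7, 33.1 and 25.5 and 47.4, 63.9 and 81.7 CPM. PME41 (Glyma.03G215800), a pectin methylesterase, had no read pair in dry seeds, was at 0.691, 1.18 and 1.14 CPM in imbibed seeds (at least 3.56-fold above the floor) and rose to 14.6, 30.5 and 27 CPM (log2 fold change 4.59, SE 0.38, edgeR adjusted p = 3.03e-05). The pectin methylesterase gene Glyma.19G078400 fell instead, from 21.3, 20.2 and 18.6 to 4.19, 4.23 and 5.89 and 0.969, 1.04 and 1.04 CPM.

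Seeds that take up water can run short of oxygen and then ferment sugars. Of 12 genes tested for fermentation and low oxygen, 6 rose and 3 fell in the first step (median 1.37) and 5 rose and 1 fell in the second (median 0.94). Pyruvate decarboxylase, which commits pyruvate to alcohol fermentation, rose in 2 genes homologous to PDC4. Glyma.03G055100 had no read pair in dry seeds, was at 4.71, 9.85 and 4.99 CPM in imbibed seeds, at least 23.2-fold above the floor, and rose 11.4-fold to 46.4, 83.6 and 92.4 CPM (log2 fold change 3.51, SE 0.40, edgeR adjusted p = 0.000153). Glyma.01G118000 went from 0, 0.0569 and 0.615 CPM to 13.8, 16.6 and 14.4 and 31.8, 46.4 and 64.4 CPM and rose in both steps (log2 fold change 1.67, SE 0.40, edgeR adjusted p = 0.00749 in the second). PDC1 (Glyma.07G153100) was at 179, 209 and 162 CPM, 355, 651 and 343 CPM and 379, 934 and 744 CPM, with replicate 2 highest at every stage, and was called only without replicate 2 of stage 1, as a rise in the first step (1.40 on the log2 scale beside 1.29). The alcohol dehydrogenase gene ADH1 (Glyma.13G035200), the next step of the pathway, fell in the first step, from 136, 63.3 and 205 to 17.9, 24.2 and 21.5 CPM. Another ADH1 homologue, Glyma.04G213900, named after its values were seen, went the other way. In the fit over both lines (18 libraries), its changes in 3mlpa were 3.00 (SE 0.77) and then 2.82 (SE 0.58) on the log2 scale. HUP26 (Glyma.03G190100), a gene induced by low oxygen in Arabidopsis, was at 13503, 4154 and 26928 CPM in dry seeds, lowest in replicate 2, and fell to 612, 570.3 and 796 CPM and 16.1, 15 and 19.7 CPM (log2 fold change -4.49, SE 0.66, edgeR adjusted p = 0.000336, then log2 fold change -5.28, SE 0.69, edgeR adjusted p = 0.000169).

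Starch and sucrose genes had 0 up and 2 down of 15 in the first step (median 0.23, but -0.06 without replicate 2 of stage 1) and 3 up and 3 down in the second (median -0.11, 0.28 with library totals). The beta-amylase gene BAM1 (Glyma.09G168300), for an enzyme that degrades starch, was at 1649, 1430.2 and 1845 CPM, 295, 356 and 388 CPM and 13.2, 8.14 and 18 CPM, and fell in both steps, 26.4-fold in the second (log2 fold change -4.72, SE 0.40, edgeR adjusted p = 1.57e-05). SUS3 (Glyma.03G216300), a sucrose synthase, rose in that step from 9.89, 8.52 and 10.8 to 49.6, 29.5 and 42.6 CPM.

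Phosphate homeostasis genes had 2 up and 3 down of 13 in the first step (median -0.15, 1.10 with library totals). In the second they had 4 up and 0 down (median 0.87). Among annotated genes, 38.7% were called in the first step and 33.6% in the second. PHT1;7 (Glyma.20G204000), a phosphate transporter, rose 12-fold at radicle emergence, from 4.64, 5.95 and 4.45 to 31.1, 87.6 and 62.4 CPM (log2 fold change 3.59, SE 0.39, edgeR adjusted p = 5.64e-05). SQD1 (Glyma.03G131100), which makes the sulfolipid that can stand in for phospholipid, fell in the first step from 32.6, 14 and 43.4 to 8.93, 8.91 and 7.98 CPM. The purple acid phosphatase gene PAP17 (Glyma.08G056400) stayed low in 3mlpa, at 0.775, 0.966 and 0.923 CPM, 0.37, 0.634 and 0.239 CPM and 1.19, 0.371 and 0.7 CPM, and was called in neither step.

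Photosynthesis genes, whose full activation needs light, showed 3 up and 6 down of 30 tested in the first step (median -0.44, 0.93 with library totals) and 17 up and 0 down in the second (median 1.80). Without replicate 2 of stage 1, 21 rose and 1 fell of 31 in the second step. PORA (Glyma.12G222200), the protochlorophyllide reductase of dark-grown tissue, was at 3.06, 2.39 and 2.33 CPM in imbibed seeds and 149, 23.4 and 34 CPM at stage 3. All stage 3 samples lay above them, with replicate 1 highest, and the rise was 26.4-fold (log2 fold change 4.72, SE 0.69, edgeR adjusted p = 0.00036). PSAF (Glyma.05G022900), a photosystem I subunit, rose from 5.92, 5.44 and 3.85 to 40.1, 21.2 and 30.3 CPM (log2 fold change 2.59, SE 0.29, edgeR adjusted p = 7.32e-05). PSBR (Glyma.15G253700), a photosystem II protein, was at 54.5, 21 and 105 CPM in dry seeds, with replicate 2 lowest, and fell in the first step to 10.3, 10.5 and 10.2 CPM (log2 fold change -2.54, SE 0.47, edgeR adjusted p = 0.00123).

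Aquaporin genes had 0 up and 2 down of 8 in the first step (median -0.07, 1.09 with library totals and 0.14 without replicate 2 of stage 1) and 0 up and 5 down in the second (median -2.26). PIP1;4 (Glyma.02G255000), a plasma membrane water channel, was at 3649, 1926 and 5017 CPM in dry seeds, 391, 821 and 731 CPM in imbibed seeds and 59.7, 66.9 and 94.8 CPM at stage 3 (log2 fold change -2.45, SE 0.46, edgeR adjusted p = 0.00132, then log2 fold change -3.13, SE 0.47, edgeR adjusted p = 0.00044). The vacuolar channel gene TIP2;3 (Glyma.01G208200) fell in the second step alone, from 9.62, 9.67 and 7.77 to 0.639, 0.594 and 0.276 CPM (log2 fold change -4.16, SE 0.39, edgeR adjusted p = 2.3e-05). Genes for histone H3, a core protein of chromatin, had 2 of 3 down in the first step (median -1.38, 0 called with library totals) and 3 of 3 down in the second (median -4.68). The histone gene Glyma.08G227400 was at 350.2, 206 and 458 CPM, 59.4, 124 and 94.2 CPM and 1.76, 2.25 and 3.29 CPM (log2 fold change -5.25, SE 0.45, edgeR adjusted p = 1.64e-05 in the second step). Cyclin and DNA replication genes had 0 up and 1 down of 6 in the first step (median 0.70) and 0 called in the second (median -0.02, 0.37 with library totals). The 1 that fell was POLD2 (Glyma.03G144600), a DNA polymerase subunit, from 36.9, 38.5 and 31.4 to 14, 12.4 and 16.9 CPM.

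Transcription factors were read by family, with the same annotation. Of all annotated genes tested, 22.9% rose and 15.8% fell in the first step, and 19.1% and 14.5% in the second. WRKY genes, a family tied to defence and stress, had 10 up and 1 down of 16 tested in the first step (median 1.94) and 7 up and 1 down in the second (median 1.60). The bHLH family had 8 up and 1 down of 23, then 6 up and 2 down. ERF genes had 4 up and 3 down of 26, then 0 up and 10 down, NAC genes 6 up and 5 down of 17, then 2 up and 2 down, and MYB genes 4 up and 2 down of 14, then 3 up and 0 down. Homeobox genes of the TALE family had 4 up of 4 and then 3 up, while NF-YA genes had 2 down of 3 and then 3 down. A group of 6 transcription factors had been picked by the study from networks built on these samples, and is no independent evidence. Of the 6, 1 rose and 1 fell in the first step (median -0.71, 0.47 with library totals) and 0 rose and 1 fell in the second. DREB1F (Glyma.01G216000), a stress-response factor, was both the one that rose and the one that fell later, at 0, 0.114 and 0.769 CPM, 13.5, 9.18 and 16.2 CPM and 0.617, 0.396 and 1.91 CPM (log2 fold change 6.03, SE 0.84, edgeR adjusted p = 0.000248, then log2 fold change -3.72, SE 0.61, edgeR adjusted p = 0.000752).

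Outside these groups, the genes with the steepest changes among those with a protein name and at least 20 CPM had varied roles. They were picked for their fold change, so their values are a description. In the first step these included 2 genes for a secreted metalloproteinase, 5-MMP. Glyma.01G036900 was at 0.282, 1.36 and 0.923 CPM, 80.3, 116 and 58.3 CPM and 598, 719.7 and 557 CPM and rose in both steps. Glyma.02G028700 reached 81.2 and then 224 CPM from a dry mean of 1.78 CPM. Several others peaked in imbibed seeds and declined by stage 3. The sphingolipid desaturase gene Glyma.01G046000 was at 48.2, 66.6 and 42 CPM from a single read pair over the dry libraries, and fell to 5.53, 10.6 and 14.4 CPM. AP2C1 (Glyma.14G195200), a phosphatase that acts on stress kinases, was at 0.634, 2.27 and 0.769 CPM, 68.8, 69.6 and 82 CPM and 8.28, 9.17 and 11.7 CPM, and the cellulose synthase-like gene CSLD3 (Glyma.01G014000) had means of 1.15, 42 and 13.8 CPM. SKS17 (Glyma.01G183100), of the SKU5 family of wall proteins, went through 4.49, 115 and 45.2 CPM. STP13 (Glyma.01G238800), a hexose carrier, rose in both steps, through 1.9, 1.25 and 0.154, 18.7, 33.3 and 38.9 and 94.6, 163 and 159.6 CPM. EXORDIUM (Glyma.02G208200), a cell expansion gene, and the mitochondrial dicarboxylate carrier DIC1 (Glyma.02G040700) were at 37.3 and 37.7 CPM in imbibed seeds from less than 1 CPM in each dry library.

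Among steep falls in the first step beyond those named above was Glyma.19G214300, a gene with no described role that went from 279, 41.2 and 534 CPM, lowest in replicate 2, to 8.56, 9.37 and 5.68 CPM (log2 fold change -5.18, SE 0.73, edgeR adjusted p = 0.000271). HPPD (Glyma.02G284600), an enzyme of vitamin E synthesis, fell 16-fold from 89.6, 31.6 and 99 to 3.58, 4.98 and 5.2 CPM. The chalcone synthase family gene Glyma.01G228700, of flavonoid synthesis, was at 6565, 1176 and 7060.3 CPM in dry seeds and 528, 479.5 and 388 CPM in imbibed seeds. NET4A (Glyma.02G236600), an actin-binding protein, and EGY3 (Glyma.01G241500), a protease-like protein of chloroplasts, fell in both steps, through means of 3626, 251 and 29 CPM and of 711, 63.7 and 7.4 CPM. Replicate 2 was the lowest dry sample for each of these 5 genes.

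In the second step, ARGAH2 (Glyma.03G028000), an arginase that frees nitrogen from stored arginine, was at 0.074, 0.0604 and 0.0598 CPM in imbibed seeds and 40.2, 8.43 and 22.6 CPM at radicle emergence. Every stage 3 sample was above all imbibed ones, with replicate 1 highest (log2 fold change 8.42, SE 0.71, edgeR adjusted p = 1.57e-05). The copper protein gene uclacyanin 1 (Glyma.03G109900) rose from 0.912, 0.785 and 0.508 to 15, 36.3 and 34.5 CPM, and a lipid-transfer-like gene, Glyma.02G088900, from 1.53, 1.72 and 1.7 to 34.3, 32.3 and 49.7 CPM. A MYB-like factor gene (Glyma.02G026300) had even replicates, at 2.81, 2.72 and 3.08 CPM and then 31.3, 29.4 and 25.1 CPM (log2 fold change 3.32, SE 0.24, edgeR adjusted p = 9.25e-06). ALA9 (Glyma.05G015400), a phospholipid flippase, and an AMP-dependent synthetase gene (Glyma.03G221400) rose in both steps, to 25.9 and 47.6 CPM at stage 3. The basic chitinase gene Glyma.02G042500, a defence enzyme, was among the steepest falls of that step. It was at 63, 39.6 and 63.2 CPM in dry seeds and 50.2, 64.3 and 50.02 CPM in imbibed seeds, which overlapped, and then at 1.5, 0.346 and 0.849 CPM (log2 fold change -5.92, SE 0.47, edgeR adjusted p = 1.31e-05).

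The most abundant transcripts were mostly genes that the annotation held here does not name. In dry seeds Glyma.10G207100 had the highest mean, 107351 CPM, with replicates at 125388, 46444 and 150221 CPM. Per kilobase of exon the order differed, since Glyma.17G027400 stood at 139230.0 CPM per kilobase and Glyma.10G207100 at 63036. Replicate 2 was the lowest dry library for both, and both fell at imbibition (log2 fold change -2.97, SE 0.64, edgeR adjusted p = 0.00283 and log2 fold change -4.35, SE 0.86, edgeR adjusted p = 0.00175). Of the 10 most abundant genes at stage 1, only the EM6 gene Glyma.03G056000 was annotated, at 23221 CPM per kilobase, and at stage 3 only SIP2 was, at 2325 CPM per kilobase.

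The change from stage 1 to stage 2 was next compared between 3mlpa and its sister line 3MWT, over 18 libraries and 30721 genes, with CPM scaled over those libraries. For 7 genes (0.0228%) the difference in change had an edgeR adjusted p under 0.01, 2 with a higher and 5 with a lower change in 3mlpa, whereas 5236 genes (17% of those tested) had an unadjusted p under 0.05. DESeq2 called 900 genes, and without replicate 2 of stage 1 of 3mlpa edgeR called 1111, and without replicate 3 of stage 1 of 3MWT 182, and the 7 genes were among those called in each of these. Fewer held under other alternatives, with 2 of the 7 called with library totals, 1 with replicate number as a block, and 1 to 4 without any 1 of the other libraries. Only Glyma.16G031200 kept its call in all 26 alternatives, beside 14 for PPCK1, 11 for PAP17 and 8 for GDPD1. PAP17 and GDPD1 were named by the study, and the other 5 genes are named here after their values were seen. PAP17 (Glyma.08G056400), a phosphatase gene of phosphate-starved Arabidopsis, was in 3MWT at 0.388, 0 and 0.755 CPM in dry seeds and 10.9, 11.1 and 13.5 CPM in imbibed seeds, and in 3mlpa at 0.837, 1.05 and 0.995 CPM and 0.4, 0.687 and 0.259 CPM. The imbibed samples of the lines did not overlap, as was so for 38.1% of genes tested, and the change was lower in 3mlpa (difference -6.03 on the log2 scale, SE 0.85, edgeR adjusted p = 0.00778). GDPD1 (Glyma.19G098500), a glycerophosphodiester phosphodiesterase, went in 3MWT from 36.6, 46.2 and 70.9 to 145, 143 and 150.4 CPM and in 3mlpa from 45.9, 15.2 and 40.6 to 9.89, 10.7 and 6.56 CPM (difference -3.41 on the log2 scale, SE 0.49, edgeR adjusted p = 0.0088). The study had singled out both of these genes on the same samples, so they are no independent evidence. Of 14 phosphate homeostasis genes tested over both lines, only these 2 were called. The other gene that the study names for each, Glyma.05G247900 for PAP17 and Glyma.16G052000 for GDPD1, was tested and not called in either step. In all, 12 of the 14 had an unadjusted p under 0.05, beside 25.5% of the 3110 annotated genes tested. The annotation came from genes that differed between lines in these same samples, so neither count is a test of the group.

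The kinase gene PPCK1 (Glyma.10G166600), which acts on phosphoenolpyruvate carboxylase, went from 11.8, 16.1 and 11.7 to 42, 42.4 and 41.1 CPM in 3MWT and from 29.8, 22.5 and 20.7 to 8.66, 11 and 14.5 CPM in 3mlpa (difference -2.77 on the log2 scale, SE 0.35, edgeR adjusted p = 0.00486). Of the 4 genes without annotation, Glyma.16G031200 was high in the dry seeds of 3mlpa alone, at 62.6, 26.1 and 59 CPM beside 2.09, 1.19 and 1.22 CPM in 3MWT, and was at 2.32, 1.63 and 1.81 and 1.66, 1.06 and 1.84 CPM in the imbibed seeds of these lines. Glyma.08G146700 went in 3mlpa from 0.533, 0.493 and 0.498 to 3.17, 2.81 and 2.33 CPM and in 3MWT from 0, 0 and 0.0581 to 5.43, 7.57 and 5.1 CPM. The other two had higher changes in 3mlpa. Glyma.10G266900 was at 77, 87.2 and 82 CPM in imbibed seeds of 3mlpa and 42.2, 41.7 and 38.5 CPM in those of 3MWT, and Glyma.01G163400 went in 3MWT from 93.4, 60.3 and 38.7 CPM to 14.5, 10.3 and 8.42 CPM while 3mlpa went from 11, 5.61 and 7.46 to 16, 25.5 and 16.3 CPM. Of 17 inositol pathway genes, 0 had a difference called by edgeR in either step, with 2 at an unadjusted p under 0.05 in the first step and 4 in the second. Over all genes tested, 0.0228% and 0.137% were called, and 17% and 7.52% had such a p. Among annotated genes, 25.5% and 20.6% had such a p. With so few genes called, the count of 0 is no result about the pathway.

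From stage 2 to stage 3, the change differed between the lines for 42 genes (0.137%), of which 40 were higher in 3mlpa and 2 lower, and 2309 genes (7.52%) had an unadjusted p under 0.05. DESeq2 called 436, and all 42 were among them, whereas 28 remained with replicate number as a block and 24 with library totals. Both PDC4 homologues were in this set. Glyma.01G118000 was at 14.9, 18 and 15.6 CPM and then 34.2, 50.1 and 69.6 CPM in 3mlpa, and at 8.39, 7.75 and 4.49 CPM and then 1.12, 1.16 and 1.44 CPM in 3MWT. In 3mlpa the stage 3 samples lay above the imbibed ones, and in 3MWT below them (difference 4.13 on the log2 scale, SE 0.57, edgeR adjusted p = 0.00145). Glyma.03G055100 ended at 49.9, 90.3 and 99.8 CPM in 3mlpa and 1.49, 1.67 and 2.12 CPM in 3MWT (difference 4.71 on the log2 scale, SE 0.63, edgeR adjusted p = 0.00334). The other fermentation genes had no called difference. In all, 8 of the 12 tested had an unadjusted p under 0.05, beside 20.6% of annotated genes, which is no test of the group since its members were annotated for differing between lines in these samples.

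The kinase gene CIPK10 (Glyma.02G234800), which acts in calcium signalling, went in 3mlpa to 16.9, 18.9 and 29.5 CPM and in 3MWT to 2.26, 3.13 and 2.48 CPM, from imbibed levels of 70.1, 60.2 and 77.5 and 63.1, 54.4 and 66.5 CPM (difference 2.87 on the log2 scale, SE 0.35, edgeR adjusted p = 0.000445). A sulfate transporter gene (Glyma.02G145100) was higher in 3mlpa at every stage and ended at 59.9, 44.5 and 75.7 CPM against 4.04, 4.78 and 4.43 CPM (difference 2.33 on the log2 scale, SE 0.38, edgeR adjusted p = 0.00731). An aspartyl protease gene (Glyma.02G243600) ended at 6.51, 11.6 and 7.61 CPM against 0.83, 0.976 and 0.847 CPM, and a transmembrane protein gene (Glyma.07G054600) at 4.45, 6.03 and 8.23 CPM against 0.83, 0.841 and 0.789 CPM. In each of these genes the stage 3 samples of the lines did not overlap, as was so for 40.5% of genes tested.

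Further genes of the 42 are named after their values were seen, and are not those with the largest differences. Others reached up to 8.10 on the log2 scale, for Glyma.09G150400. AVP1 (Glyma.20G098300), a vacuolar proton pump driven by pyrophosphate, was at 12.5, 18.1 and 10.3 CPM and then 152, 156 and 271 CPM in 3mlpa, while 3MWT stayed at 4.24, 4.15 and 2.87 and 2.86, 3.37 and 5.41 CPM (difference 3.78 on the log2 scale, SE 0.43, edgeR adjusted p = 0.000377). ACO1 (Glyma.05G222400), the last enzyme of ethylene synthesis, was at 107, 166 and 110.0 CPM and 89.7, 80.5 and 91.4 CPM in the imbibed seeds of 3mlpa and 3MWT, and at stage 3 at 219.9, 187 and 313 CPM and 11.7, 15.67 and 12.9 CPM (difference 3.61 on the log2 scale, SE 0.42, edgeR adjusted p = 0.000377). The nitrate reductase gene NIA1 (Glyma.06G109200) ended at 26.3, 43.1 and 29 CPM and 1.24, 1.25 and 1.66 CPM. Among genes for inhibitors of fungal polygalacturonase (PGIP1), Glyma.08G078900 ended at 106, 112 and 139.8 CPM against 9.91, 12.3 and 13.4 CPM and Glyma.05G124000 at 123, 77.8 and 118 CPM against 1.93, 3.48 and 4.35 CPM. Those with a lower change in 3mlpa were Glyma.08G168700, at 48.5, 55.3 and 42.5 CPM and then 12.6, 11 and 13.6 CPM, and Glyma.11G202000, at 17.61, 22.7 and 18.8 CPM and then 2.98, 2.67 and 3.12 CPM, and both had been higher in imbibed 3mlpa than in imbibed 3MWT. Neither was called with library totals or with replicate number as a block, and their calls held in 12 and 13 of 26 alternatives. Among genes named with a higher change, the call held in all 26 for AVP1, ACO1, CIPK10 and Glyma.08G078900. It held in 25 for the aspartyl protease gene, 22 for Glyma.01G118000 and 18 for Glyma.03G055100, NIA1 and Glyma.05G124000. For Glyma.07G054600 it held in 16, and for the sulfate transporter gene in 14.

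**Figure D5:**
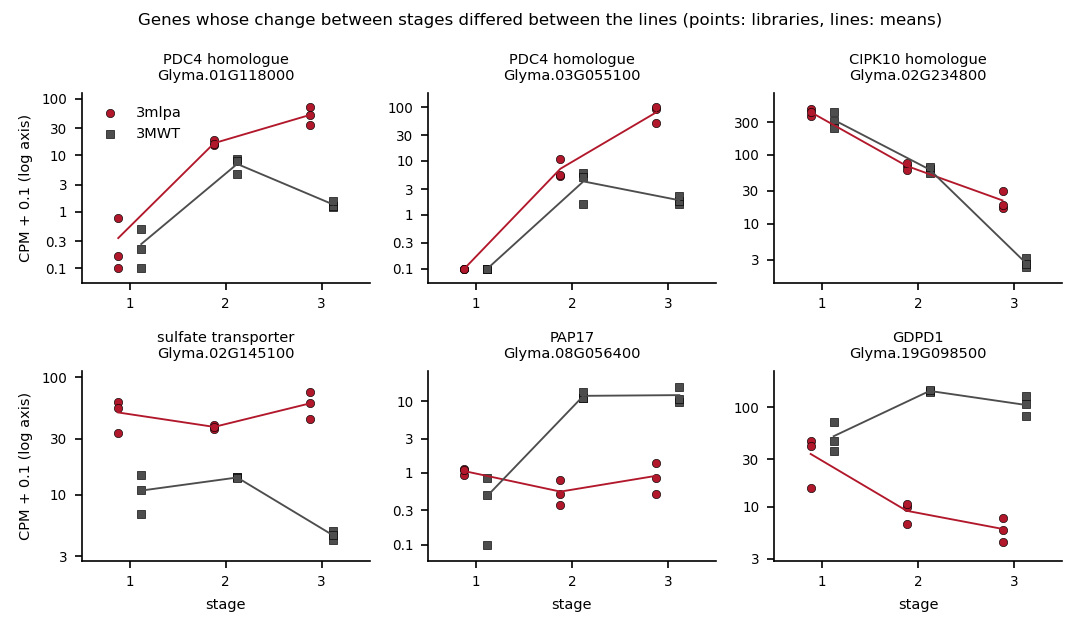
Level of 6 genes in each library of 3mlpa (red circles) and 3MWT (grey squares) at stages 1 to 3 (CPM over 18 libraries plus 0.1, log axis), with lines through the means. At stage 3 every 3mlpa sample lies above every 3MWT sample for PDC4, CIPK10 and the sulfate transporter, and at stage 2 every 3mlpa sample lies below every 3MWT sample for PAP17 and GDPD1.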

How the data were processed

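Total RNA (RIN over 8) of 3 samples of 10 seeds per line and stage was sequenced as paired reads. After trimming by Skewer and alignment by STAR 2.5.2b to the soybean genome Wm82.a2.v1, the authors deposited raw counts of read pairs per gene from featureCounts 1.5.1, with both ends mapped to exons. Strand was not used, so overlapping antisense genes cannot be told apart, and pairs that map to several places were not counted, which makes near-identical copies uncertain. The authors' own tests used DESeq2 1.22.2 in R 3.5.1 and are not used here.

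Groups came from the labels of the libraries. Of 56044 genes in the table, those with a mean TMM-normalised count over 10 were tested with edgeR 4.0.16 (limma 3.58.1, data.table version 1.17.8, R 4.3.3), one coefficient per stage over the 9 libraries of 3mlpa, or per line and stage over 18 libraries for differences between lines. Benjamini-Hochberg adjustment ran over all genes tested, with calls at an adjusted p under 0.01 and, within 3mlpa, a log2 fold change beyond 1. The SE is the log2 fold change divided by the root of F. A gene that was not called is not shown to be unchanged. A floor of 3 read pairs per library, which covers counting error only, stands in for libraries at 0. The code was tested on simulated counts. Alternatives were DESeq2 1.42.0, other scalings, filters and thresholds, a replicate block, other sets of libraries and each library left out. The number of per-sample columns left out was 0.

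The members and gene lists were chosen with earlier results of these data known. Lists were taken from Arabidopsis loci, since description patterns planned first matched almost no gene, and the annotation came from supplementary tables held in part. Genes were named by rule: the 3 mutated genes, those the study names, the 12 steepest per step and direction with at least 20 CPM, separated replicates and a description, the 10 most abundant per stage, the most abundant and steepest of each list, and the interaction genes with the smallest p. Others are said to be named after their values were seen.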

Additional observations from a re-analysis of the deposited data

Results flagged for a closer look

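The test of the difference in change between 3mlpa and 3MWT picked out 7 genes from stage 1 to stage 2 and 42 genes from stage 2 to stage 3, at an edgeR adjusted p under 0.01 over 18 libraries. The first count was 1111 without replicate 2 of stage 1 of 3mlpa and 182 without replicate 3 of stage 1 of 3MWT. Differences are given as the log2 change of 3mlpa minus that of 3MWT.

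In the first step the phosphate-related genes PAP17 (Glyma.08G056400, -6.03) and GDPD1 (Glyma.19G098500, -3.41) had lower changes in 3mlpa, as did the kinase gene PPCK1 (Glyma.10G166600, -2.77). Among genes without annotation, Glyma.08G146700 (-5.47) and Glyma.16G031200 (-4.71) had lower changes, and Glyma.01G163400 (3.80) and Glyma.10G266900 (1.85) higher ones.

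In the second step the PDC4 homologues of alcohol fermentation had higher changes in 3mlpa, with 4.71 for Glyma.03G055100 and 4.13 for Glyma.01G118000. The PGIP1 homologues stood at 4.03 for Glyma.05G124000 and 3.23 for Glyma.08G078900. AVP1 (Glyma.20G098300) stood at 3.78, ACO1 (Glyma.05G222400) at 3.61 and NIA1 (Glyma.06G109200) at 3.17. The aspartyl protease gene Glyma.02G243600 had a difference of 2.88 and the CIPK10 homologue Glyma.02G234800 of 2.87. The sulfate transporter gene Glyma.02G145100 had a difference of 2.33 and the transmembrane protein gene Glyma.07G054600 of 2.30. Lower changes in 3mlpa were found for Glyma.11G202000 (-1.88) and Glyma.08G168700 (-1.82).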

How the results depend on the processing

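The 9239 calls of the first step and the 5695 of the second became 3773 and 2370 when edgeR tested against a log2 fold change of 1, and the first became 6103 with only the 6 libraries compared. Leaving out 1 library at a time gave 5346 to 12972 calls in the first step and 3155 to 7730 in the second, both highest without replicate 2 of stage 1. The first count was 5901 without replicate 1 of stage 1 and 5346, 5637 and 5920 without replicates 1, 2 and 3 of stage 2, and the second was 3440, 3490 and 3155 without those of stage 2 and 3650 without replicate 3 of stage 3. Of the genes given with their tests, ITPK1 (Glyma.01G016700) had a first-step log2 fold change of 0.25 with library totals beside -1.18, called in neither, and the INT2 homologue Glyma.05G142500 one of 0.014 beside -1.13 and HAB1 (Glyma.06G054000) one of 0.12 beside -1.28, both called in the latter alone. These are the 3 cases with a reversed sign. Counting each gene in each alternative, a call was lost in 60 further cases, gained in 15 and the same in 1344. With library totals, 653 genes were called downward in the first step, beside 4208 with TMM factors.

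The differences between lines, 7 and 42 genes, were 900 and 436 with DESeq2, 26 and 101 with no filter, and 208 and 184 at an adjusted p under 0.05, and the second was 26 with library totals. Leaving out 1 library gave 1 to 1111 and 18 to 117 genes, and leaving out both dry libraries numbered 2, chosen after seeing the data, gave 2204 and 265. The second count was 95 without replicate 2 and 71 without replicate 3 of 3mlpa stage 1, and 117 and 66 without replicates 2 and 3 of 3MWT stage 1. Without any 1 library of stage 2 or 3 of either line it was 18 to 43. The first count was 1111 without replicate 2 and 12 without replicate 3 of 3mlpa stage 1, 182 without replicate 3 of 3MWT stage 1, and 1 to 4 without any 1 of the others.

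Whether replicate numbers pair the samples is not stated. Deviations of samples with the same number had correlations from -0.18 to 0.30, over 0.1 in 3 of 9 pairs. For samples with different numbers they ran from -0.33 to 0.30, over 0.1 in 5 of 18 pairs. With 3 libraries per stage these values cannot show whether samples were paired. With the replicate block, the counts were 8673 and 5218 within 3mlpa and 1 and 28 between the lines. The cause of these changes was not tested. With 20295984 read pairs or more per library, genes under the filter of 10 counts were not tested.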
